A study of Mus musculus with 2 samples.

Results

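The urea cycle of the newborn mouse liver was described here through 10 genes out of 43346 Ensembl genes in the tables: the cycle enzymes Nags, Cps1, Otc, Ass1, Asl and Arg1, the second arginase Arg2, the mitochondrial carriers Slc25a13 and Slc25a15, and the liver-type glutaminase Gls2. They were chosen by name for their known roles, with earlier results of these data known. All 10 were found in both gene tables, with 39 transcripts in both transcript tables. RNA was sequenced from the livers of 2 B6NCrl mice, an inbred C57BL/6N strain, taken on postnatal day 0. Both pups were littermates from the same dam, no treatment is named in the labels, each library came from 1 whole liver, and the sex of the pups was not collected. The livers form 1 group of 2 biological replicates, called pup 1 and pup 2, so no conditions could be contrasted. The libraries were built from 10 ng of RNA and held 42124582 expected counts in pup 1 and 41443673 in pup 2.

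The urea cycle turns toxic ammonia, released when amino acids are broken down, into urea that can be excreted. Its first steps take place inside the mitochondria of hepatocytes, where ammonia and bicarbonate form carbamoyl phosphate and then citrulline. Its last steps take place in the cytosol, where a further nitrogen enters from aspartate, arginine is formed and arginase releases urea. In the adult liver the pathway is concentrated in periportal hepatocytes, while pericentral hepatocytes capture the remaining ammonia as glutamine.

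The urea cycle was expressed in both livers at levels far above those of a typical gene. A gene counted as detected at 1 TPM (transcripts scaled to a fixed total per library) or more in each liver, which 28.5% of all Ensembl genes reached and 9 of the 10 urea cycle genes did. A level of 100 TPM or more in each liver was reached by 5 of the 10 (Ass1, Arg1, Cps1, Asl and Slc25a13), against 2.41% of all genes. The median of the 10 genes was 106 ± 0.569 TPM (SD, n = 2), and the median of all detected genes was 9.45 TPM. Together the 10 genes held 0.210% of TPM in pup 1 and 0.228% in pup 2. Their share of the expected counts was 0.397% ± 0.0162 (SD, n = 2), where long transcripts such as that of Cps1 weigh more because counts are not divided by length.

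The tissue label was checked with marker genes. All 6 hepatocyte markers were detected, with a summed level of 46685 TPM in pup 1 and 45776 TPM in pup 2, led by Apoa1 at 23974 ± 145 TPM. The kidney tubule and the intestine also express parts of the cycle. None of 6 kidney tubule markers was detected, and Umod, Slc12a1, Slc34a1, Aqp2 and Kap had 0 counts in both livers, which allows up to 3 counts in each. Of 9 intestinal markers, 2 were detected (Apoa4, also made by the mouse liver, and Fabp2), and Cdx1, Cdx2 and Alpi had 0 counts in both. Blood cell RNA was abundant: the summed level of 7 erythroid markers was 64228 TPM in pup 1 and 67060 TPM in pup 2. In whole liver RNA, fewer cells of a type and less RNA per cell cannot be told apart.

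The mitochondrial enzymes spanned a wide range. Cps1 (ENSMUSG00000025991, chromosome 1, 67123026 to 67231259), which makes carbamoyl phosphate from ammonia and bicarbonate, had 273 TPM in pup 1 against 246 in pup 2. Otc (ENSMUSG00000031173, chromosome X, 10252305 to 10321024), which joins carbamoyl phosphate to ornithine to give citrulline, had 75.6 TPM in pup 1 against 78.5 in pup 2. Nags (ENSMUSG00000048217, chromosome 11, 102145513 to 102149477), which makes the N-acetylglutamate that Cps1 needs to be active, had 16.3 TPM in pup 1 against 21.9 in pup 2. Within a liver Cps1 was above both partners: the log2 ratio of Cps1 to Otc was 1.75 ± 0.15 (SD, n = 2), and that of Cps1 to Nags was 3.78 ± 0.41. Coordinates here and below follow GENCODE M21 (GRCm38, that is mm10).

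Among the cytosolic enzymes, Ass1 and Arg1 lay above every mitochondrial one and Asl lay beside Cps1. Ass1 (ENSMUSG00000076441, chromosome 2, 31470207 to 31520672), which condenses citrulline with aspartate, had the highest level of the 10 genes at 747 TPM in pup 1 against 833 in pup 2. Arg1 (ENSMUSG00000019987, chromosome 10, 24915221 to 24927484), which splits arginine into urea and ornithine, followed at 527 TPM in pup 1 against 626 in pup 2. Asl (ENSMUSG00000025533, chromosome 5, 130011258 to 130029247), which splits argininosuccinate into arginine and fumarate, had 230 TPM in pup 1 against 235 in pup 2. Asl therefore had the lowest level of the cytosolic enzymes in both livers, with a log2 ratio of Ass1 to Asl of 1.76 ± 0.09 and of Asl to Arg1 of -1.31 ± 0.16 (SD, n = 2). Otc, the last mitochondrial step, was far below Ass1, the first cytosolic one, with a log2 ratio of Otc to Ass1 of -3.36 ± 0.07. Summed over each compartment, Ass1, Asl and Arg1 held 71.6% of the TPM of the 10 genes in pup 1 and 74.3% in pup 2, and Nags, Cps1 and Otc held 17.4% and 15.2%. The cytosolic sum was 4.12 times the mitochondrial sum in pup 1 and 4.88 times in pup 2. This ratio depends on the division by length in TPM. By expected counts Cps1 was above Ass1, with 0.126% against 0.101% of the counts in pup 1 and 0.116% against 0.114% in pup 2.

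The carriers connect both compartments. Slc25a13 (citrin; ENSMUSG00000015112, chromosome 6, 6041218 to 6217173), which exports mitochondrial aspartate in exchange for glutamate and so feeds Ass1, had 137 TPM in pup 1 against 133 in pup 2. Slc25a15 (ENSMUSG00000031482, chromosome 8, 22375551 to 22398597), which exchanges ornithine for citrulline across the inner membrane, had 50.4 TPM in pup 1 against 47.1 in pup 2. Each was below the enzyme it serves: the log2 ratio of Ass1 to Slc25a13 was 2.55 ± 0.15 and that of Otc to Slc25a15 was 0.66 ± 0.11 (SD, n = 2). Gls2 (ENSMUSG00000044005, chromosome 10, 128194457 to 128210004), which frees ammonia from glutamine inside the mitochondrion, had 43.3 TPM in pup 1 against 58.8 in pup 2. Arg2 (ENSMUSG00000021125, chromosome 12, 79130777 to 79156301), the mitochondrial arginase known mainly from tissues other than liver, had 1.17 TPM in pup 1 against 0.80 in pup 2, from 55.3 and 38.2 expected counts.

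**Figure D1:**
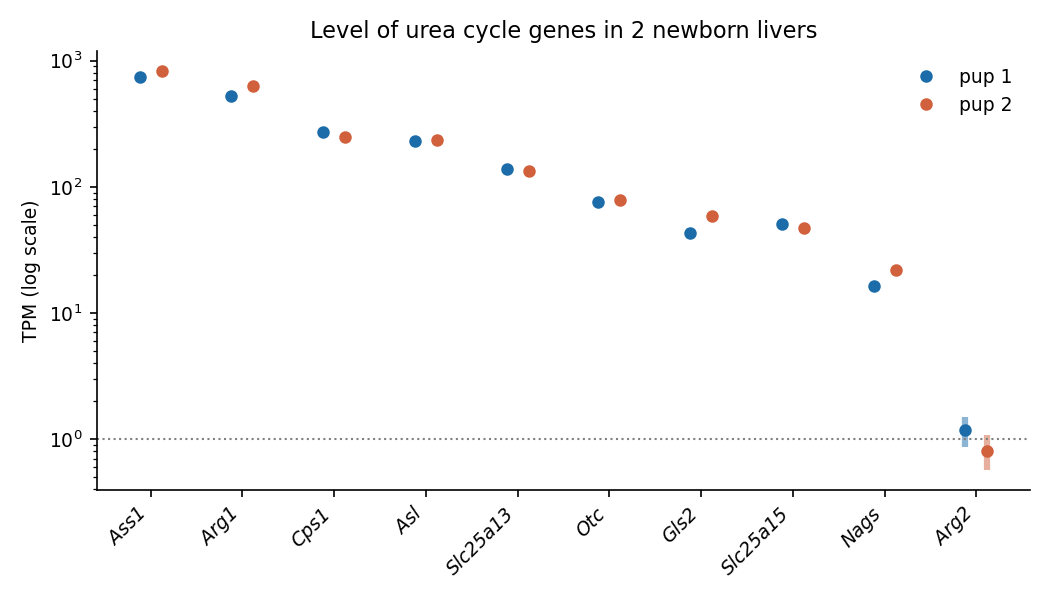
Level of each of the 10 urea cycle genes in TPM, on a log axis, in pup 1 and pup 2. Points are the deposited values, vertical bars the authors' credible bounds (hidden by most points), and the dotted line marks 1 TPM. Ass1 and Arg1 lie highest and Arg2 lies at the detection level, with the remaining genes between 16.3 and 273 TPM.

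Ordered by mean TPM, the genes ran from Ass1 through Arg1, Cps1, Asl, Slc25a13, Otc, Gls2, Slc25a15 and Nags to Arg2. Neighbours were called different when both livers agreed in sign and the mean log2 ratio was over 3 SD from 0. No p is given, since with 2 livers the smallest p of an exact two-sided permutation of signs is 0.5. By this rule 3 neighbouring pairs did not differ beyond their spread: Cps1 and Asl (log2 ratio 0.16 ± 0.13), Otc and Gls2 (0.61 ± 0.27) and Gls2 and Slc25a15 (0.05 ± 0.38). The last pair changed places, with Slc25a15 above Gls2 in pup 1 and below it in pup 2. By expected counts, which are not divided by length, Cps1 came first with 0.121% of the counts, ahead of Ass1 with 0.107% and Arg1 with 0.0679%. The single Cps1 transcript is 5555 nt long, against 1696 nt for the leading Ass1 transcript and 1476 nt for that of Arg1.

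Genes of the cycle with a counterpart in another tissue or pathway stood well above it. These pairs are of interest because related sequences can trade reads, so their longest shared coding stretch is shown with 20 bases on each side, from GENCODE M21 transcripts (GRCm38). Capitals mark the longest run that the coding sequences share, each line reads 5′ to 3′ on the coding strand, and positions are counted from the start codon.
Arg1 (coding bases 503 to 554): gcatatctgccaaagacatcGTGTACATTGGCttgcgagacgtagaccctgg
Arg2 (coding bases 560 to 611): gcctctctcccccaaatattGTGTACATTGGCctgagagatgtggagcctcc
Slc25a13 (coding bases 1142 to 1202): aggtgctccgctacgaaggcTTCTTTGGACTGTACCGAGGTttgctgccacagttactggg
Slc25a12 (coding bases 1133 to 1193): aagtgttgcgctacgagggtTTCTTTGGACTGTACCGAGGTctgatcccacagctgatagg

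The shared runs were 12 nt for the arginases and 21 nt for the aspartate-glutamate carriers, far shorter than the 100 nt stretch used here to ask whether a read could be assigned. The translated coding sequences were 59.9% identical for Arg1 and Arg2 and 77.3% for Slc25a13 and Slc25a12. The ratio of Arg1 to Arg2 was 450 in pup 1 (95% counting interval 348 to 601) and 783 in pup 2 (571 to 1108), a log2 ratio of 9.21 ± 0.56 (SD, n = 2). Slc25a13 exceeded its paralog Slc25a12 (aralar, the form known from muscle and brain) 7.45-fold in pup 1 and 7.46-fold in pup 2, the most even ratio of the pairs reported. Slc25a15 exceeded the second ornithine carrier Slc25a2, which had 5 counts in pup 1 and 3 in pup 2, with ratios of 458 (counting interval 195 to 1402) and 672 (244 to 3461).

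Further pairs set the cycle against competing reactions or, for Car5a and Car5b, compared related enzymes beside it. Cps1 exceeded Cad, whose cytosolic carbamoyl phosphate synthetase feeds pyrimidine synthesis, by 6.44 ± 0.32 on the log2 scale (SD, n = 2). Arg1 exceeded Oat, which diverts ornithine from the cycle, by 3.90 ± 0.20. Car5a, the mitochondrial carbonic anhydrase of liver that supplies bicarbonate to Cps1, exceeded Car5b by 5.73 ± 0.14, with 20 counts of Car5b in pup 1 and 11 in pup 2. Glul, the glutamine synthetase of pericentral hepatocytes, had 269 TPM in pup 1 against 260 in pup 2, and its level could not be separated from that of Cps1 (log2 ratio of Cps1 to Glul -0.03 ± 0.07). Of the 14 pairs reported, 13 differed beyond the spread between the livers and Cps1 with Glul was the exception.

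**Figure D2:**
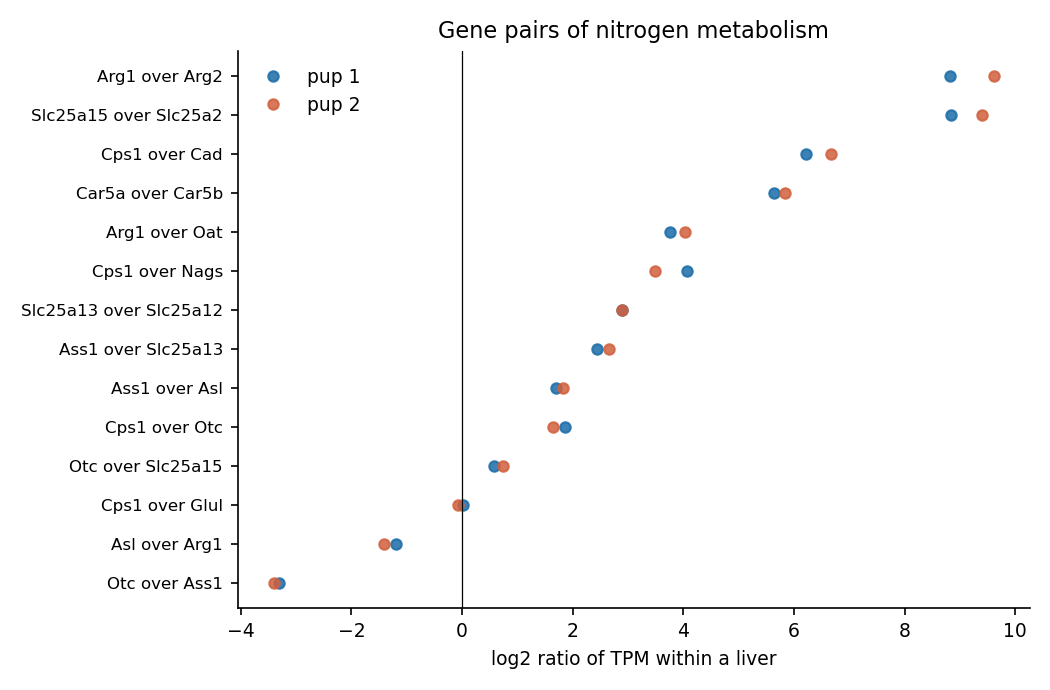
Log2 ratio of TPM within each liver for the 14 gene pairs, with pup 1 and pup 2 as separate points. Arg1 over Arg2 and Slc25a15 over Slc25a2 have the highest ratios, and Cps1 over Glul lies at 0.

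A processed pseudogene bears on the level of Ass1. Gm5424 (chromosome 10, 62071123 to 62072362, plus strand) aligned to the Ass1 transcript without gaps over 1240 bases, of which 1234 (99.5%) were identical, and the longest identical run was 398 bases. Of the 1597 stretches of 100 nt in the leading Ass1 transcript, 622 (38.9%) also occurred in Gm5424, so reads from them could not be assigned by sequence. The window below, from the M21 transcripts and with the Ass1 position counted from its start codon, shows 2 of the differing bases in capitals.
Ass1 (coding bases 339 to 458): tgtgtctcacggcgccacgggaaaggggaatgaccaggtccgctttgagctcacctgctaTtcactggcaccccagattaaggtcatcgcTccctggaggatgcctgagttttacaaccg
Gm5424: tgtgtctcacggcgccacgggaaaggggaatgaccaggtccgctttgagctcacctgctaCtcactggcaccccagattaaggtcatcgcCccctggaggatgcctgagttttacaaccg

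The authors' estimate gave Gm5424 15.7 TPM in pup 1 and 16.9 TPM in pup 2. Its expected counts were 1.97% of those of Ass1 in pup 1 and 1.91% in pup 2. The division of reads between both genes is uncertain in either direction. Overlap on the opposite strand touched Nags and Arg2. The antisense gene Gm11586 (4.07 TPM in pup 1 and 3.37 TPM in pup 2) covered 17.9% of the 100 nt stretches of the leading Nags transcript, and Vti1b (38.2 and 35.7 TPM) covered 14.0% of those of Arg2. The sources used here do not state whether counting used strand, so reads of Nags and Arg2 cannot be told apart from those of their neighbours there. For Arg2, with its low counts, the neighbour's level was far above its own. For each of the other 7 genes 1 coding transcript was searched (Gls2-201 for Gls2), and none shared a stretch of 100 nt with another gene. Gls2-207, which has a larger share of the TPM of Gls2, was not searched.

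Transcript usage varied among the genes. Cps1, Arg1, Arg2 and Slc25a15 each had 1 transcript in the annotation used. In 3 genes 1 protein-coding transcript held most of the TPM: Ass1-201 held 99.7% in pup 1 and 99.4% in pup 2, Otc-201 held 98.5% and 97.9%, and Slc25a13-201 held 90.2% and 93.3%. Asl was divided among 4 protein-coding transcripts: Asl-202 held 30.7% and 35.6%, Asl-205 held 25.7% and 22.5%, Asl-201 held 23.3% and 21.2%, and Asl-206 held 19.1% and 16.9%. Its transcripts annotated as protein-coding together held 98.9% in pup 1 and 96.4% in pup 2. Of these, Asl-201 and Asl-206 are 792 and 923 nt long, against 1820 nt for Asl-202 and 1824 nt for Asl-205. Whether the shorter transcripts hold the whole coding region was not examined. By expected counts the mean share of Asl-202 was 43.1%, against 33.1% by TPM. The coding transcript Nags-201 held 71.3% in pup 1 and 78.0% in pup 2, with the noncoding Nags-203 next at 22.8% and 17.2%. Among 4321 protein-coding genes with several transcripts and a level of 10 TPM or more, the median share of TPM in coding transcripts was 95.5%, and 22.6% of these genes had a share at or below that of Nags.

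Most Gls2 RNA was assigned to transcripts of annotated types other than protein-coding. Retained intron transcripts held 41.9% of the gene's TPM in pup 1 and 38.3% in pup 2. Highest by TPM, Gls2-207 is annotated as a retained intron transcript of 1529 nt and held 38.3% of the gene's TPM in pup 1 and 38.1% in pup 2. The coding transcript Gls2-201 held 32.9% in pup 1 and 33.6% in pup 2. The order of these transcripts is not settled, since their credible bounds of TPM overlapped in both livers and by expected counts Gls2-201 came first, with 1253 against 844 in pup 1 and 1750 against 1147 in pup 2. Transcripts annotated as targets of nonsense-mediated decay, led by Gls2-211 at 12.6% and 12.9%, held 22.5% in pup 1 and 26.3% in pup 2. Protein-coding transcripts in all held 35.5% in pup 1 and 34.0% in pup 2, or 15.4 and 20.0 TPM. By expected counts the share of the protein-coding type was 44.0% and 42.5%, so the larger part of the reads was also assigned to other types. Of the 4321 genes described above, 5.32% had a coding share at or below that of Gls2. The shares rest on the authors' division of reads among overlapping transcripts.

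**Figure D3:**
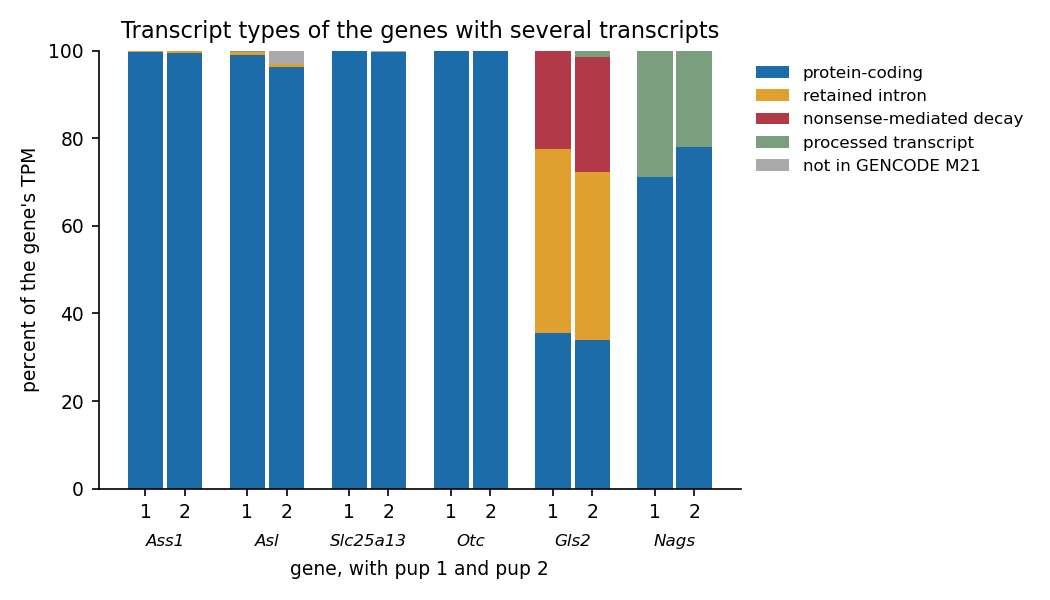
Percent of each gene's TPM by annotated transcript type, for the 6 genes with several transcripts, in pup 1 and pup 2 (stacked bars that add to 100). Protein-coding transcripts fill nearly the whole bar for Ass1, Asl, Slc25a13 and Otc, 71.3% and 78.0% for Nags, and 35.5% and 34.0% for Gls2.

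Between the littermates Gls2 and Nags had the largest log2 ratios of the urea cycle genes that passed the filter on low values, and both were higher in pup 2. For genes at a mean of 1 TPM or more, the ratio of pup 2 to pup 1 was taken on log2(TPM + 1), which understates differences of low genes. Of the 10 genes, 9 passed this filter and Arg2 fell just below it, at a mean of 0.985 TPM. A gene was called apart when the fold reached a set size and the livers' credible bounds, as deposited, were apart. Such a rule of size sets 1 animal against another and has no replicate check. None of the urea cycle genes was at least 1.5-fold apart, against 1.47% of all genes tested, and none was at least 2-fold apart, against 0.629%. With so few genes in all past these folds, a count of 0 among 9 does not set the urea cycle genes apart. With a fold of 1.2, set after seeing the data, 2 of the 9 genes were apart, against 8.22% of all genes. Both of them, Gls2 and Nags, were higher in pup 2. Of all genes tested, 2.87% were apart and higher in pup 2, that is 365 of the 1045 apart. Arg1, with a fold of 1.19 on this scale, lay just below. The median log2 ratio was 0.05 over the 9 urea cycle genes tested, 0.04 with Arg2 included, and -0.05 over all 12711 genes tested.

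Gls2 had a log2 ratio of 0.43, from 2910 expected counts in pup 1 and 4125 in pup 2. Scaled to library totals its counts were 1.44 times as high in pup 2 (95% exact counting interval 1.37 to 1.51). Nags had a log2 ratio of 0.41, from 1098 and 1499 expected counts, a ratio of scaled counts of 1.39 (1.28 to 1.501). Both genes lay toward the edge of the spread at their level. They were picked for the largest ratios of the urea cycle genes tested, so the shares below are not those of genes named beforehand. Of 2242 genes with a mean TPM within 2-fold of that of Gls2, 1.92% had a log2 ratio at least as large in size, and of 3731 such genes around Nags, 3.86% did. In Nags the authors' estimate placed the difference in the coding transcript, at 11.6 TPM in pup 1 against 17.1 in pup 2. The noncoding transcripts of Nags stood at 4.68 and 4.83 TPM. This division of reads is uncertain, since the credible bounds of Nags-203 were wide (2.25 to 5.33 TPM in pup 1 and 2.57 to 5.98 in pup 2). Those of Nags-201 did not overlap (9.74 to 12.97 and 14.43 to 18.12 TPM).

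Smaller differences were seen for the abundant enzymes, where counting error is small. Arg1 had a log2 ratio of 0.25 (ratio of scaled counts 1.22, counting interval 1.197 to 1.24) and Ass1 of 0.16 (1.14, 1.12 to 1.15), both higher in pup 2. Cps1 had a log2 ratio of -0.15 (0.922, 0.911 to 0.934) and Slc25a15 of -0.10 (0.956, 0.922 to 0.992), both lower in pup 2. Slc25a13, Otc and Asl had log2 ratios of -0.05, 0.05 and 0.03. Of genes with a mean TPM within 2-fold of that of Arg1, 5.54% had a log2 ratio at least as large in size. For Ass1, Cps1 and Slc25a15 this share was 13.2%, 14.9% and 46.1%, and for Slc25a13, Otc and Asl 64.7%, 64.2% and 77.8%. Arg2 had a log2 ratio of -0.27, and its counting interval of 0.452 to 1.08 included equal levels. The credible bounds of the livers did not overlap for 7 of the 9 genes tested (Nags, Cps1, Ass1, Arg1, Slc25a13, Slc25a15 and Gls2), a count added after seeing the data, against 20.1% of all genes tested. Such bounds narrow with level, so abundant genes meet this more easily, and for Slc25a13 the bounds were apart by a narrow margin (a lower bound of 133.27 TPM in pup 1 and an upper bound of 133.26 TPM in pup 2). Of the 9 genes tested, 4 had bounds apart and were higher in pup 2 (Nags, Ass1, Arg1 and Gls2), against 6.27% of all genes. Among genes with bounds apart, these were 4 of 7, against 797 of 2557 over all genes. When TPM was scaled by the ERCC spike-in counts, the log2 ratios of Ass1 (-0.09), Otc (-0.19) and Asl (-0.22) turned negative, and with edgeR's TMM factors that of Slc25a13 became 0.02. The ERCC scaling moved the median of all genes to -0.26, and the ratios of Ass1, Otc and Asl were above it. This scaling rests on 163 spike-in counts in pup 1 and 190 in pup 2, so it carries counting error of its own.

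Other RNA also differed between these livers. All 8 striated muscle markers were at least 1.5-fold higher in pup 2, with a summed level of 53.4 TPM in pup 1 and 815 TPM in pup 2, led by Acta1. Of 8 pancreas markers 7 were at least 1.5-fold higher, with a summed level of 2.49 TPM in pup 1 and 111 TPM in pup 2, led by Ctrb1, while Pnlip had 0 counts in both. The part of these RNAs in the differences of Gls2, Nags, Arg1 and Ass1 was not tested.

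**Figure D4:**
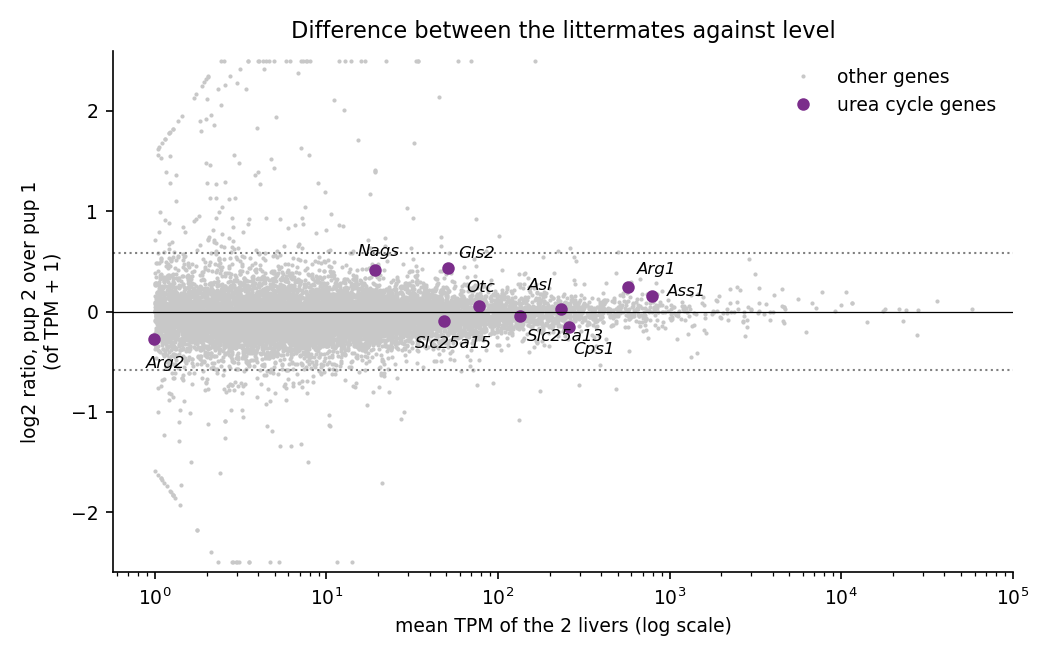
Log2 ratio of TPM + 1, pup 2 over pup 1, against mean TPM on a log axis, for all genes at a mean of 1 TPM or more (grey) and the 10 urea cycle genes (purple, with Arg2 shown although its mean is below 1 TPM). Dotted lines mark 1.5-fold, and grey points beyond 2.5 are drawn at the edge. The urea cycle genes lie between -0.27 (Arg2) and 0.43 (Gls2), inside the dotted lines.

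The reactions around the cycle had lower medians than the cycle itself. Of 87 genes in 6 lists of neighbouring pathways, 79 were detected. All 14 genes listed under ammonia release and glutamate supply were detected at a median of 65.7 ± 7.72 TPM (SD, n = 2). The highest was Glul, the glutamine synthetase, which captures ammonia rather than releasing it. The carriers of urea cycle substrates had 18 of 23 detected at a median of 17.4 ± 1.45 TPM. The amino acid carrier Slc38a4 was highest at 256 ± 3.68 TPM, and the urea transporter Slc14a2 was lowest, with 1 count in pup 1 and 3 in pup 2. Of the 8 genes of bicarbonate and fumarate reactions, 7 were detected (median 66.9 ± 2.06 TPM), and the highest was the carbonic anhydrase Car2, which red blood cells also make, at 822 ± 53.7 TPM.

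Other fates of ornithine and arginine, which include polyamine, proline, creatine and nitric oxide synthesis, had 18 of 20 genes detected at a median of 24.1 ± 1.13 TPM. The ornithine decarboxylase antizyme Oaz1 was highest at 1022 ± 11.5 TPM, and the inducible nitric oxide synthase Nos2 was lowest, with 0 counts in pup 1 and 1 in pup 2. All 19 regulators were detected at a median of 9.88 ± 1.48 TPM, from Foxa1 at 1.65 ± 0.51 TPM to Foxa3 at 63.6 ± 13.9 TPM. The 3 pyrimidine synthesis genes were detected, from Cad at 3.69 TPM in pup 1 against 2.42 in pup 2 to Umps at 15.4 ± 1.23 TPM.

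Of the 79 neighbours at a mean of 1 TPM or more, 6 were at least 1.5-fold apart between the livers. Over all genes tested the share was 1.47%. Among these 6, 4 belonged to the 19 regulators, and each liver is 1 animal. The lists were chosen with earlier results of these data known, so these counts cannot show an excess among neighbours or regulators. From the list of regulators, the transcription factors Cebpa (16.4 TPM in pup 1 and 27.8 TPM in pup 2) and Cebpb (24.1 and 38.0 TPM) were higher in pup 2. Klf15 (38.0 and 18.4 TPM) and the coactivator Ppargc1a (6.08 and 3.64 TPM), from the same list, were lower in pup 2. So were the glutamine carrier Slc38a2 (25.3 and 16.0 TPM) and Car5a (8.43 and 5.12 TPM). The part of these genes in the differences of the urea cycle genes was not tested. Median log2 ratios were -0.08 for ammonia release, -0.08 for the carriers, -0.05 for bicarbonate and fumarate reactions, -0.04 for other fates of ornithine and arginine, -0.14 for the regulators and -0.27 for pyrimidine synthesis. In each of the 6 lists more tested genes were lower than higher in pup 2, and of all genes tested 36.6% were higher in pup 2.

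**Figure D5:**
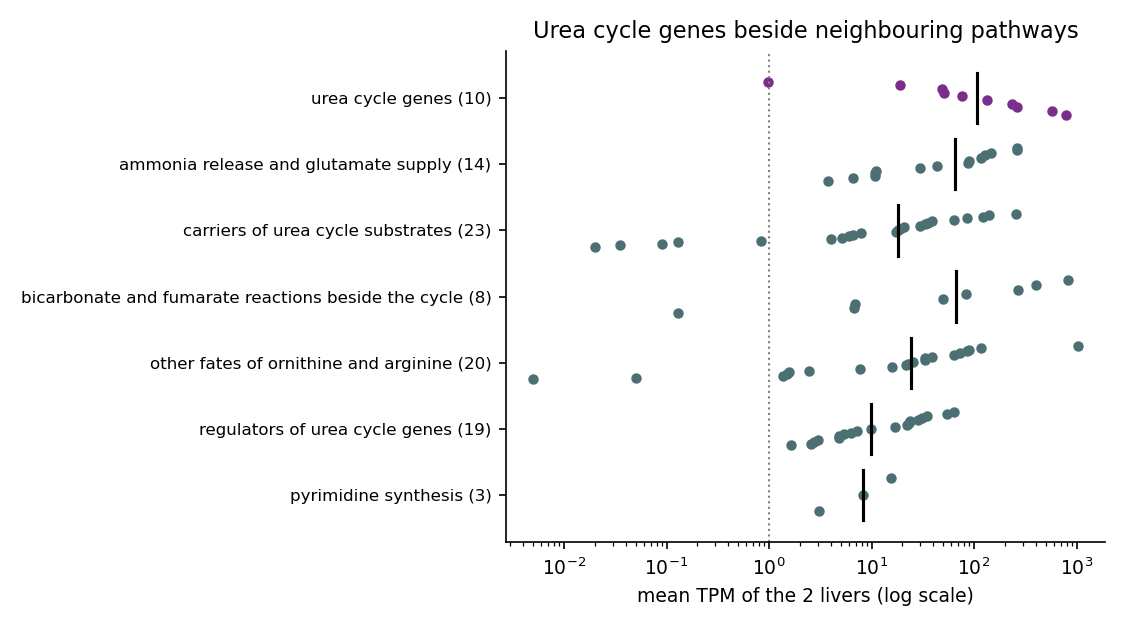
Mean TPM of the 2 livers on a log axis for the 10 urea cycle genes and for the genes of 6 neighbouring pathway lists (number of genes in brackets). Black bars mark the median of each row and the dotted line marks 1 TPM, and the urea cycle genes have the highest median of the 7 rows.

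Promoter windows were available for 5 of the 10 genes in the RefSeq table (GRCm38.p6), from 250 bases before to 50 bases after a start site. Slc25a15 had 2 windows, with 60.7% GC and 15 CpG pairs and with 79.0% GC and 51 CpG pairs, the highest of these genes. The window of Ass1 had 74.0% GC and 27 CpG pairs, that of Slc25a13 65.0% and 17, that of Nags 57.7% and 14, and that of Otc 44.3% and 1, while the medians of all 32851 promoters were 52.7% GC and 7 CpG pairs. Motifs were searched on both strands: TATAAA (in 13.6% of all promoters), CCAAT (37.4%), TTGCNNAA (10.8%), TGACGTCA (1.79%), CAAAGTCCA (0.475%) and TGTTCT (19.0%). One match was found in the 6 windows of these genes, a CCAAT 22 bases before the start site in Slc25a13.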

How the data were processed

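The members and gene lists were chosen with earlier results of these data known. For each liver the authors deposited a gene table and a transcript table in the layout of RSEM, made on mm10 and GENCODE M4 per the deposited notes. The aligner and counter are not named in the sources used here. The deposited expected counts are estimates that divide a read matching several genes among those genes. TPM values were deposited as reads per effective length (99 nt less than the length) scaled to a fixed total, and FPKM values were deposited too and used as an alternative. The percent of a gene's TPM held by each transcript was also deposited. The authors' credible bounds belong to a posterior mean estimate, so a TPM of an abundant gene can lie outside them, and their level is not stated. The assay is labelled as total RNA-seq, and the priming of the first strand is not settled by the protocols in the labels.

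Symbols, coordinates and transcript types came from GENCODE M21 by Ensembl identifier without version, which matched 42462 of 43346 genes and 35 of the 39 transcripts of the 10 genes. Genes named are the 10 members, both genes of each pair, the highest and lowest member of each pathway list with those at least 1.5-fold apart, and the highest member and those at 0 counts of marker lists a result touches. One pair that the rule would name is not reported here. Count intervals are exact at 95% and describe counting error alone, because without molecular identifiers reads are not independent molecules. The 3-count floor was 0.0712 CPM in pup 1 and 0.0724 in pup 2. Alternatives covered the unit, the rescaling, the pseudocount, the filters, edgeR 4.0.16 TMM factors (R 4.3.3, on expected counts) and ERCC spike-in scaling. No count model was run, since there was 1 group. Python 3.11.15 with pandas 2.3.3, numpy 2.4.6, scipy 1.17.1, biopython 1.88 and matplotlib 3.10.9 was used. The rule of size was tried at 2-fold on counts simulated with counting error alone, which hold no variation between animals. The folds of 1.5 and 1.2 and the authors' credible bounds were not tried in this way.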

Additional observations from a re-analysis of the deposited data

How the results depend on the processing

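Of 337 alternative values, 271 stayed within the spread or within 1.5 times of a count, 64 moved beyond it and 2 reversed the direction of a gene whose credible bounds were apart. Restating the median of the 10 genes gave 90.6 with FPKM, 104.6 TPM with the posterior mean, and 135 TPM after globin, mitochondrial and 7SL RNA rows were removed, which also took their share to 0.280%. The median over the 87 pathway genes, 18.9 TPM, became 16.1 with FPKM and 24.1 TPM after that removal. With either liver alone the share was 0.210% or 0.228%, the median 105.6 or 106.4 TPM, and 9 or 10 genes were detected. With pup 1 alone 8 of the 10 kept their place in the order. Transcript shares were not rescaled, since a share within a gene does not change. The number of genes at least 1.5-fold apart, 187, became 284 with a pseudocount of 0.1, 342 without the condition on credible bounds and 433 with ERCC scaling. With the rules added after seeing the data it was 1045 at 1.2-fold (2 of the urea cycle genes) and 2557 by credible bounds alone (7 of them). The number at least 2-fold apart, 80, became 159 without that condition. The median log2 ratio of the 10 genes, 0.04, became -0.20 with ERCC scaling, where the spike-ins had 163 counts in pup 1 and 190 in pup 2. The reversals were Ass1, from 0.16 to -0.088 with ERCC scaling, and Slc25a13, from -0.05 to 0.018 with edgeR TMM factors. Nags, Gls2 and Arg1 were higher in pup 2, and Cps1, Arg2 and Slc25a15 lower, under every setting run, Arg1 at 0.01 with ERCC scaling. Arg2 is limited by depth, and transcript shares by the division of reads. No paired analysis was possible because there was 1 group.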
